A study of Mus musculus with 8 samples.

Results

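C/EBPα binding was described here at 33 genes of the lysosome, 12 of them cathepsins or legumain, out of 21887 protein-coding mouse genes. Peaks of the 6 anti-C/EBPα libraries that shared at least 1 bp were merged into 259446 regions, and the 374 regions within 10 kb of a gene body of the 33 were taken. The cells were progenitors sorted from mouse bone marrow as Lin- KIThi-int FLT3+, with 1 of 3 forms of the Zeb2 enhancer that the series is about. The variant forms are named DC and DE in the labels, which do not spell out the change, and the third form is WT, the wild type. CUT&RUN releases the DNA beside an antibody-bound protein with a tethered nuclease. Each genotype had 2 libraries, of which replicate 1 belongs to batch 1 and replicate 2 to batch 2. The labels give neither the age of the mice nor the number behind a library, nor whether each replicate is another animal, and the p-values here reflect the spread between libraries and no more. The 2 IgG libraries, both from WT cells, were not analysed here. Peak lists hold no expression values, so the surface markers of the sort could not be checked.

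Lysosomes are acidic compartments in which hydrolases break down proteins, glycans and lipids taken up by the cell or delivered by autophagy. Most of the soluble enzymes reach them through a mannose 6-phosphate tag, and many of their genes carry an E-box element, called CLEAR, that is bound by TFEB, TFE3 and MITF. C/EBPα is a basic leucine zipper factor needed for granulocyte and monocyte progenitors, cells whose progeny are rich in lysosomes and in the cathepsins that process antigen.

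Member promoters were covered more often than promoters at large. RefSeq promoter windows of 300 bp, from 250 bases before to 50 after an annotated start on GRCm38.p6 (the assembly of mm10), were at hand for 29 of the 33 genes, as 37 windows. A region called in both libraries overlapped 22 windows in DC (59.5%), 20 in DE (54.1%) and 23 in WT (62.2%), against 30.8%, 27.8% and 27.6% of 21263 windows of all protein-coding genes. A region called in all 6 libraries overlapped 19 windows of 18 genes (51.4% of windows), against 23.4% of all windows. A loose C/EBP form, TTGCNNAA, fixes the half-site TTGC and a final AA and leaves the bases between them open. It does not require the second half-site. On either strand it stood in 8 member windows (21.6%) and in 10.2% of all protein-coding windows. The full palindrome TTGCGCAA was in 0 member windows and in 0.221% of all. The CLEAR core GTCACGTG, which contains the E-box CACGTG, was in 7 member windows (18.9%) and in 2.84% of all, and CACGTG itself in 10 (27.0%) and 7.84%. Of the 19 member windows overlapped in all 6 libraries, 4 (21.1%) held TTGCNNAA and 3 (15.8%) held GTCACGTG. Of all 4973 windows so overlapped, 11.5% and 5.13% did. These are matches of letters and not measured sites, and genes with several starts count several times.

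Of the promoters that a region covered in all 6 libraries, 5 are printed from RefSeq GRCm38.p6, each as the 250 bases before the start, read 5′ to 3′ on the strand of the gene. They hold a motif of either kind, with its centre 8 to 97 bp from the median summit. Ctsl and Gla were also covered and hold a motif, but are not printed. Their median summits lay farther off, 156.5 bp from the TTGCNNAA match at Ctsl and 100.5 bp from the CLEAR core at Gla. Mcoln1 (chr8:3500269-3500518, plus strand) and Glb1 (chr9:114400828-114401077, plus strand) have the CLEAR core in capitals, in either orientation. Cd68 (chr11:69666171-69666420, minus strand), Gaa (chr11:119267713-119267962, plus strand) and Npc2 (chr12:84773113-84773362, minus strand) have the match to TTGCNNAA, or to its reverse complement, in capitals.
Mcoln1: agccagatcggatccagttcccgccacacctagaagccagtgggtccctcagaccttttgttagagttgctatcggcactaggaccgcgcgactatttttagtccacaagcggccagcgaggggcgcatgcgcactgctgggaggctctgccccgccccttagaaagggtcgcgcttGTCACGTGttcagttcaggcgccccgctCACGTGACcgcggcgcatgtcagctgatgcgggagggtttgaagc
Glb1: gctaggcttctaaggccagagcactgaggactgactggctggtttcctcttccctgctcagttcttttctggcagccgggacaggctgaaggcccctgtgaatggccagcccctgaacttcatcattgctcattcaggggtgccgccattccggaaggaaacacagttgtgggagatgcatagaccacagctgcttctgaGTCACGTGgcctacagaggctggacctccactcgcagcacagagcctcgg
Cd68: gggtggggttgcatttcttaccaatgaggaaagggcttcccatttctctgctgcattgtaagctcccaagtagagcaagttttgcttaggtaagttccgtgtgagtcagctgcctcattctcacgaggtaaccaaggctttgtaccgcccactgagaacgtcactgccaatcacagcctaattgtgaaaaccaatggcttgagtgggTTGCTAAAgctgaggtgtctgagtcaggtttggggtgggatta
Gaa: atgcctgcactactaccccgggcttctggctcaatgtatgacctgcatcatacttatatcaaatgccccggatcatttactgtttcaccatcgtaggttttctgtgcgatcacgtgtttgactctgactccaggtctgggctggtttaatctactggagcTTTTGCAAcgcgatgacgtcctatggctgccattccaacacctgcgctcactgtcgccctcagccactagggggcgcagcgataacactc
Npc2: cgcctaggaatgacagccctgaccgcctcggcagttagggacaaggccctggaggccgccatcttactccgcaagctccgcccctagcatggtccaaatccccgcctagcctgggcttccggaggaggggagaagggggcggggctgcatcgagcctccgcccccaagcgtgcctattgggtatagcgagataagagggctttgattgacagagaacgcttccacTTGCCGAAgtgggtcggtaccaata

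The summits did not lie on these motifs alike. At Npc2 the median summit was 13 bp before the start and 8 bp from the motif centre, with the 6 libraries between -25 and -1 bp. At Gaa the median summit was 126 bp before the start, 40 bp from the motif centre, and this window also holds CACGTG at -140, nearer to the summit and left in lower case. At Cd68 the median summit was 136 bp before the start, 97 bp from the motif centre. At Mcoln1 the median summit was 127 bp before the start and 58 bp from the nearer CLEAR core, and at Glb1 122 bp before the start and 76 bp from it. At Cd68 the libraries placed the summit within 15 bp of each other.

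**Figure D1:**
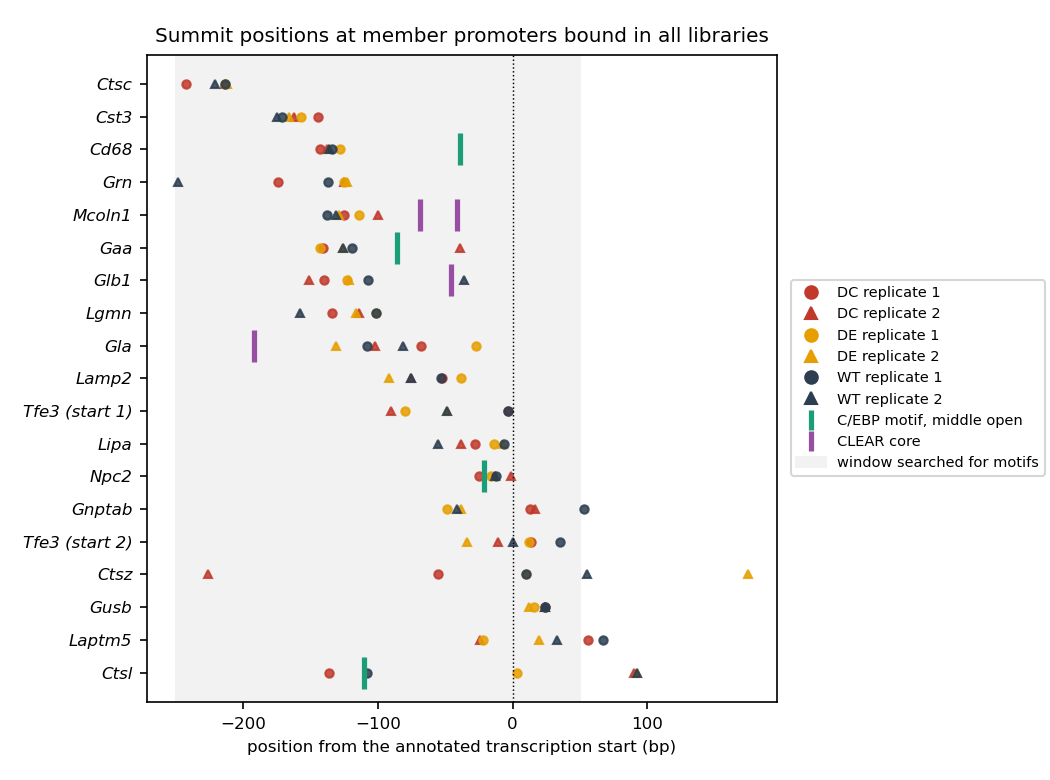
Summit positions at the 19 member promoter windows overlapped by a region called in all 6 libraries, in bp from the annotated start (dotted line, 0), 1 row per window and 1 point per library. Vertical ticks mark motif matches inside the window searched (grey). The C/EBP ticks, called middle open in the key, are matches to the loose form TTGCNNAA, which does not require the second half-site. The Npc2 summits lie beside its C/EBP match, while those of Cd68 lie upstream of its own.

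Called regions lay near almost all members in every genotype. A region called in both libraries of the genotype lay within 10 kb of 31 of 33 members in DC, 32 in DE and 31 in WT, against 60.7%, 58.0% and 56.7% of all protein-coding genes. The peak lists reach up to a q of 0.1, a lenient threshold. At a −log10 q of at least 2 the member counts were also 31, 32 and 31. The median gene length was 18554 bp for the members and 17169 bp for all protein-coding genes. Ctsf, a cysteine cathepsin, had 6 regions, none called in both libraries of any genotype. Ctsk, the collagen-degrading cathepsin of osteoclasts, had none in both DC libraries: its best region (chr3:95511847-95512274) had a summit pileup, the number of fragments over the summit, of 16 in DC replicate 1 and no peak in DC replicate 2, against 20 and 7 in DE and 20 and 7 in WT. Cd63, a tetraspanin of late endosomes, had none in both WT libraries.

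Of the 374 regions, 81 (21.7%) were called in all 6 libraries, 87 in 2 to 5 and 206 (55.1%) in 1 library, against 9.05% in all 6 and 76.7% in 1 library over the whole union. DC replicate 1 stands apart: it has 169943 of the peaks, against 50221 to 82080 in the other libraries. It alone called 125 of the 206 single-library regions, and 113235 of 198927 over the whole union. The share of member regions called was 73.5% and 34.0% in DC, 32.6% and 40.1% in DE, and 38.5% and 40.4% in WT. Over all regions of the union it was 64.6% and 18.7% in DC, 19.8% and 21.5% in DE, and 30.9% and 21.4% in WT. By position, 186 regions lay inside a member gene, 71 within 1 kb of either end and 117 farther outside. For 61 regions (16.3%) another gene was as near or nearer, so the target of the binding is not given by distance. Read totals are not in the files used here, so depth is unknown, and the median pileup at shared regions was 58 and 24 in DC, 42 and 32 in DE, and 34 and 34 in WT.

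Pileups were therefore divided by a library factor, the median deviation over the 23480 regions called in all 6 libraries, and are called scaled pileups below. The strongest shared region of a member, its lead region, could be given for 30 members (not Ctsf, Ctsk or Cd63). Ranked among all 23480 regions, their median percentile was 78.6, and 9 of 30 (30.0%) were in the top 10%. A strongest region ranks high by its choice: the lead regions of all 11054 protein-coding genes that have one gave a median percentile of 69.1 and 20.4% in the top 10%, with a mean of 2.21 shared regions per gene against 2.7 for the members. The lead regions lay within 1 kb of an end of the gene for 14 genes, inside the gene for 7 and outside for 9. In bulk cells, fewer cells with a bound site and less signal per cell cannot be told apart.

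The transcription factor genes spanned a wide range of binding. Tfeb, which drives CLEAR genes, had the strongest lead region of all members, inside the gene and 16482 bp from the nearest annotated start (chr17:47754228-47754865). Its scaled pileup was 318 and 193 in DC, 222 and 189 in DE, and 314 and 222 in WT. The genotypes overlapped, and batch 1 was the higher in each. Tfe3, its paralogue, had its lead region at the start (chrX:7762390-7762858), with 125 and 120 in DC, 130 and 116 in DE, and 151 and 148 in WT. Both WT libraries were the highest, and the differences of -0.29 ± 0.22 (DC) and -0.29 ± 0.22 (DE) on the log2 scale (± SE) did not pass limma with a batch term (adjusted p = 0.564 and 0.677). Mitf, the relative known from melanocytes, mast cells and osteoclasts, had a weak lead region, at percentile 27.9, described with the genotypes below.

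Gnptab encodes the α and β subunits of the phosphotransferase that starts the mannose 6-phosphate tag. It had 25 regions, 6 of them called in all libraries. Its lead region, 11377.5 bp into the gene from the start (chr10:88390174-88390831), had scaled pileups of 99.4 and 92.0 in DC, 59.4 and 71.3 in DE, and 64.6 and 60.9 in WT. Both DC libraries were above all 4 others.

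Among the membrane proteins, Cd68, the macrophage sialomucin, led with a promoter region (chr11:69666018-69666895) at 178 and 195 in DC, 209 and 238 in DE, and 187 and 215 in WT. Both DE libraries were above both DC libraries, and WT overlapped each. The region is 41 bp from Eif4a1. Lamp1, a main glycoprotein of the lysosomal membrane, was bound inside the gene (chr8:13162060-13162459) at 79.1 and 88.9 in DC, 48.5 and 70.2 in DE, and 62.6 and 49.4 in WT; both DC libraries were the highest. Lamp2, its partner in the membrane, Laptm5, a membrane protein of blood cells, and Mcoln1, the calcium channel of the lysosome, had geometric means of 51.7, 42.8 and 30.5.

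Of the cofactors and lipid transfer proteins, Npc2, which passes cholesterol to NPC1, was bound most strongly 2040 bp outside the gene (chr12:84752052-84752519), at 110 and 79.7 in DC, 128 and 133 in DE, and 153 and 105 in WT. Grn, which encodes progranulin, was bound 1113 bp outside (chr11:102428818-102429394), at 111 and 78.2 in DC, 129 and 86.1 in DE, and 67.6 and 63.0 in WT. At Grn all 4 variant libraries were above both WT libraries, while at Npc2 both DE libraries were above both DC libraries and WT overlapped each. Npc1, the cholesterol exporter, and Psap, the saposin precursor, had geometric means of 55.0 and 49.9.

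Of the glycan and lipid hydrolases, Gusb (β-glucuronidase) was bound at its start (chr5:130002734-130003455) at 145 and 147 in DC, 167 and 148 in DE, and 213 and 155 in WT. Gaa, which degrades glycogen, was bound at its promoter (chr11:119267584-119268121) at 130 and 152 in DC, 100 and 120 in DE, and 134 and 112 in WT. At Gaa both DC libraries were above both DE libraries and WT overlapped each, and at Gusb both DC libraries were below all 4 others. Gla (α-galactosidase A), Lipa (lysosomal acid lipase), Glb1 (β-galactosidase) and Hexa (β-hexosaminidase α) followed with geometric means of 69.8, 35.0, 24.7 and 19.9, and the Hexa region lies in Tmem202.

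Among the proteases, Lgmn, the asparagine endopeptidase that activates cathepsins, was bound 5509 bp outside the gene (chr12:102445237-102445926) at 206 and 205 in DC, 247 and 234 in DE, and 252 and 182 in WT. Ctsz, a carboxypeptidase, was bound 289 bp outside (chr2:174439328-174440219) at 189 and 124 in DC, 168 and 157 in DE, and 206 and 139 in WT. At Lgmn both DE libraries were above both DC libraries and WT overlapped each, and at Ctsz all genotypes overlapped. Ctsb (114), Ctsc, the activator of neutrophil serine proteases (91.4), Ctsd (87.8), Ctse (81.5) and Ctsl (60.1) came next by geometric mean of the scaled pileup. Ctss, which cleaves the invariant chain in antigen-presenting cells, had 36.8, Ctsa, the carboxypeptidase that protects β-galactosidase, 31.7 in a region inside Zswim1, and Ctsh, an aminopeptidase, 17.6. Cst3, the cathepsin inhibitor cystatin C, was bound at its promoter (chr2:148875473-148875867) at 31.5 and 64.4 in DC, 70.3 and 68.0 in DE, and 52.5 and 87.2 in WT. Both DE libraries were above both DC libraries there, and WT overlapped each.

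**Figure D2:**
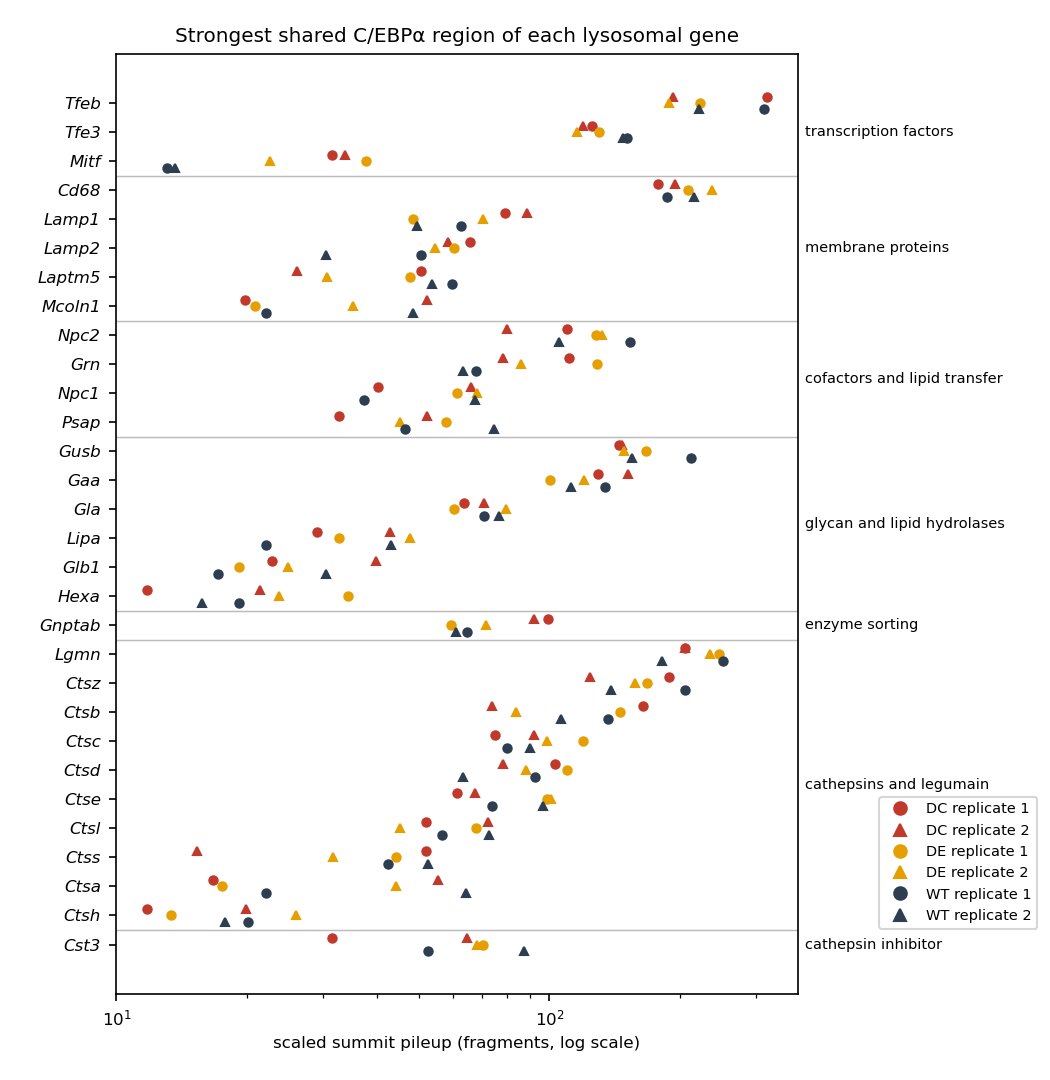
Scaled summit pileup (log axis) at the lead region of each of 30 lysosomal genes, grouped by role, with 1 point per library and the genotypes offset DC, DE, WT from top to bottom. Tfeb, Lgmn and Cd68 stand at the top; Mitf is the row where the 4 variant libraries lie farthest above both WT libraries.

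The variant genotypes were set against WT to ask whether a change in the Zeb2 enhancer moves C/EBPα at these genes. Binding at the 81 shared member regions differed little as a group. Without a batch term limma called 0 of 23480 regions in any comparison, or 0.0%, at an adjusted p under 0.05, and so 0 of 81 members. At an unadjusted p under 0.05 it had 1876, 1144 and 557 regions in DC against WT, DE against WT and DC against DE, and of the members 3, 1 and 0. With batch as a term, which the labels give, 1 member region rose and 0 fell in DC against WT, where 3.15% of all regions rose and 1.17% fell. In DE against WT 0 members rose or fell (1.12% and 0.264% of all regions), and in DC against DE 0 did (0.00852% and 0.0213%). At an unadjusted p under 0.05 that fit had 14, 4 and 8 of the 81 (17.3%, 4.94% and 9.88%), against 17.0%, 12.0% and 8.20% of all regions. The median log2 difference of the members was -0.07 in DC minus WT and -0.05 in DE minus WT, against -0.02 and 0.00 over all regions. Both comparisons use the same WT libraries.

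Scaling fixes the sign of such small differences. With the background floor of each library in place of the shared regions, the median over all regions moved to 0.84 in DC minus WT and 0.55 in DE minus WT, the members to 0.78 and 0.50, and the batch fit called 682 regions higher and 0 lower in DC. All differences are therefore relative to the shared regions. Relative to the median of all regions, a count that a change of scaling cannot alter, 48 of 81 members were lower in DC. Of the 22 cathepsin and legumain regions 18 were lower and 4 higher, where all regions split evenly by definition. Ctse, Ctsz and Lgmn each gave 4 of the 22, so these are not separate observations. With the deposited summit fold in place of pileup the lower ones were 42 of 81 and 15 of 22. The median of the 22 in DC minus WT was -0.13 when scaled to shared regions and 0.72 under the floor scaling, where 21 were above 0. None of the 22 passed in any comparison in either fit. Scaled to shared regions, the medians of the other roles with more than 1 region lay between -0.02 (glycan and lipid hydrolases) and 0.05 (membrane proteins).

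**Figure D3:**
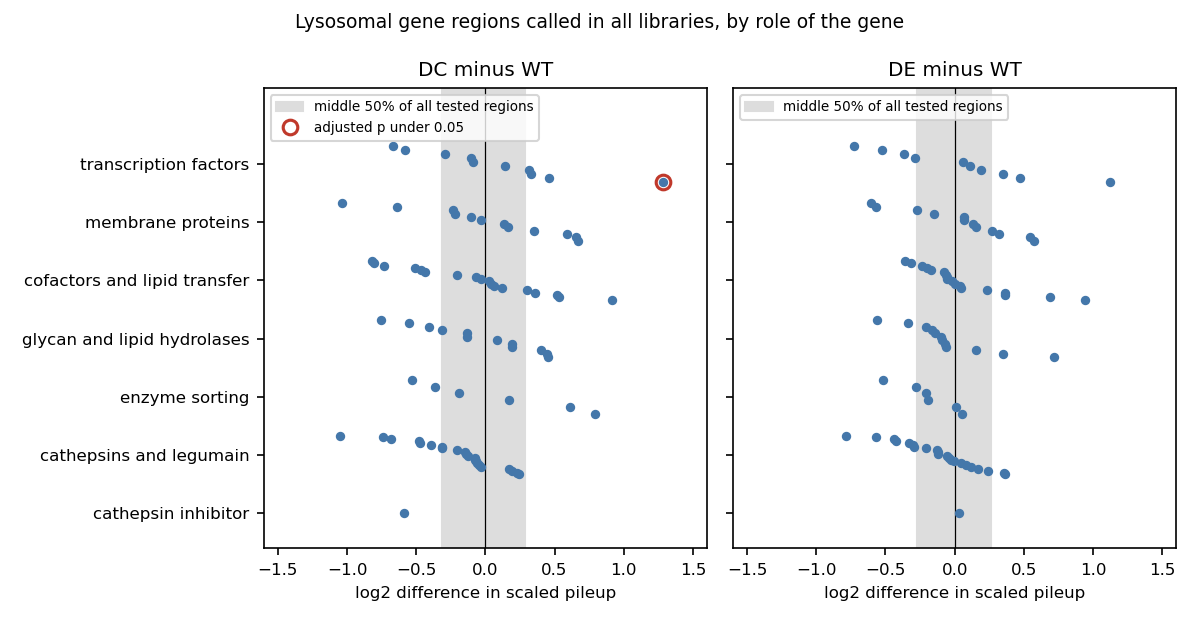
Log2 difference in scaled pileup of the 81 shared member regions, by role of the gene, for DC minus WT (left) and DE minus WT (right). Grey spans the middle 50% of all 23480 tested regions. The ring marks the Mitf region that passed with a batch term, at 1.28. In DC minus WT 18 of 22 protease regions lie left of 0, as do 12162 of all 23480.

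Mitf held the region that rose. It lies inside the gene (chr6:97819029-97819299), with scaled pileups of 31.5 and 33.7 in DC, 37.6 and 22.7 in DE, and 13.1 and 13.7 in WT, from raw pileups of 51 and 22 (DC), 45 and 20 (DE) and 13 and 13 (WT). All 4 variant libraries were above both WT libraries. The DC minus WT difference was 1.28 ± 0.38 (log2 ± SE; limma with a batch term, adjusted p = 0.0345) and had an adjusted p of 0.421 without that term. The ratio of DC to WT was 2.40 in batch 1 (95% interval 1.29 to 4.81) and 2.47 in batch 2 (1.19 to 5.34), where intervals cover counting error only. DE minus WT was 1.13 ± 0.38, with adjusted p = 0.138. Without DC replicate 1 or 2 the adjusted p with a batch term was 0.154 or 0.473, and without WT replicate 1 or 2 it was 0.252 or 0.109.

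The next smallest p-values, none of which passed with a batch term, were spread over roles and directions. In DC against WT, a second Gnptab region (chr10:88385686-88386109) had 118 and 82.8 in DC, 61.1 and 54.4 in DE, and 75.7 and 43.1 in WT, and its difference was 0.79 ± 0.27 (adjusted p = 0.0750). Both DC libraries were the highest. A Grn region inside the gene (chr11:102432054-102432914) had 36.4 and 46.0 in DC, 54.4 and 68.0 in DE, and 68.6 and 74.6 in WT (-0.81 ± 0.28, adjusted p = 0.0935), while the Grn lead region lay the other way. A Ctsz region (chr2:174438730-174439294) had 10.5 and 10.7 in DC, 17.6 and 12.5 in DE, and 24.2 and 20.0 in WT (-1.05 ± 0.42, adjusted p = 0.152). A region of Npc1 (chr18:12215447-12215842) had 34.6 and 49.1 in DC, 48.5 and 36.2 in DE, and 15.1 and 31.5 in WT; all 4 variant libraries were above both WT libraries, by 0.92 ± 0.35 in DC and 0.94 ± 0.35 in DE (adjusted p = 0.131 and 0.192). Without WT replicate 1 the differences were 0.41 and 0.43, and without WT replicate 2 they were 1.42 and 1.45. Without DE replicate 1 the DE difference was 0.34.

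In DE against WT the Grn lead region differed by 0.69 ± 0.25 (adjusted p = 0.180). A Tfe3 region (chrX:7765815-7766189) had 26.6 and 44.5 in DC, 32.6 and 29.4 in DE, and 52.5 and 50.4 in WT, a DE minus WT difference of -0.73 ± 0.33 (adjusted p = 0.336). A Ctsd region (chr7:142393137-142393507) had 17.3 and 19.9 in DC, 14.2 and 15.9 in DE, and 18.2 and 36.8 in WT (-0.78 ± 0.40, adjusted p = 0.429), which was -0.37 without WT replicate 2. Both WT libraries exceeded both DE libraries at these 2 regions.

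Between the variants, Gnptab gave 3 of the 5 smallest p-values, all with DC above DE: 0.78 ± 0.27 at the region named above (adjusted p = 0.410), 0.69 ± 0.28 at one outside the gene (chr10:88372472-88372894; adjusted p = 0.484) and 0.56 ± 0.26 at the lead region (adjusted p = 0.570). The outside region had 68.6 and 88.9 in DC, 37.6 and 62.3 in DE, and 67.6 and 71.4 in WT. Ctse, an aspartic protease, had 61.2 and 67.5 in DC, 98.7 and 101 in DE, and 73.7 and 96.7 in WT at its lead region (chr1:131672246-131672894), a DC minus DE difference of -0.63 ± 0.25 (adjusted p = 0.484). The Cst3 promoter had a difference of -0.62 ± 0.29 (adjusted p = 0.557), which was -0.27 without DC replicate 1 and -0.15 without DE replicate 1.

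**Figure D4:**
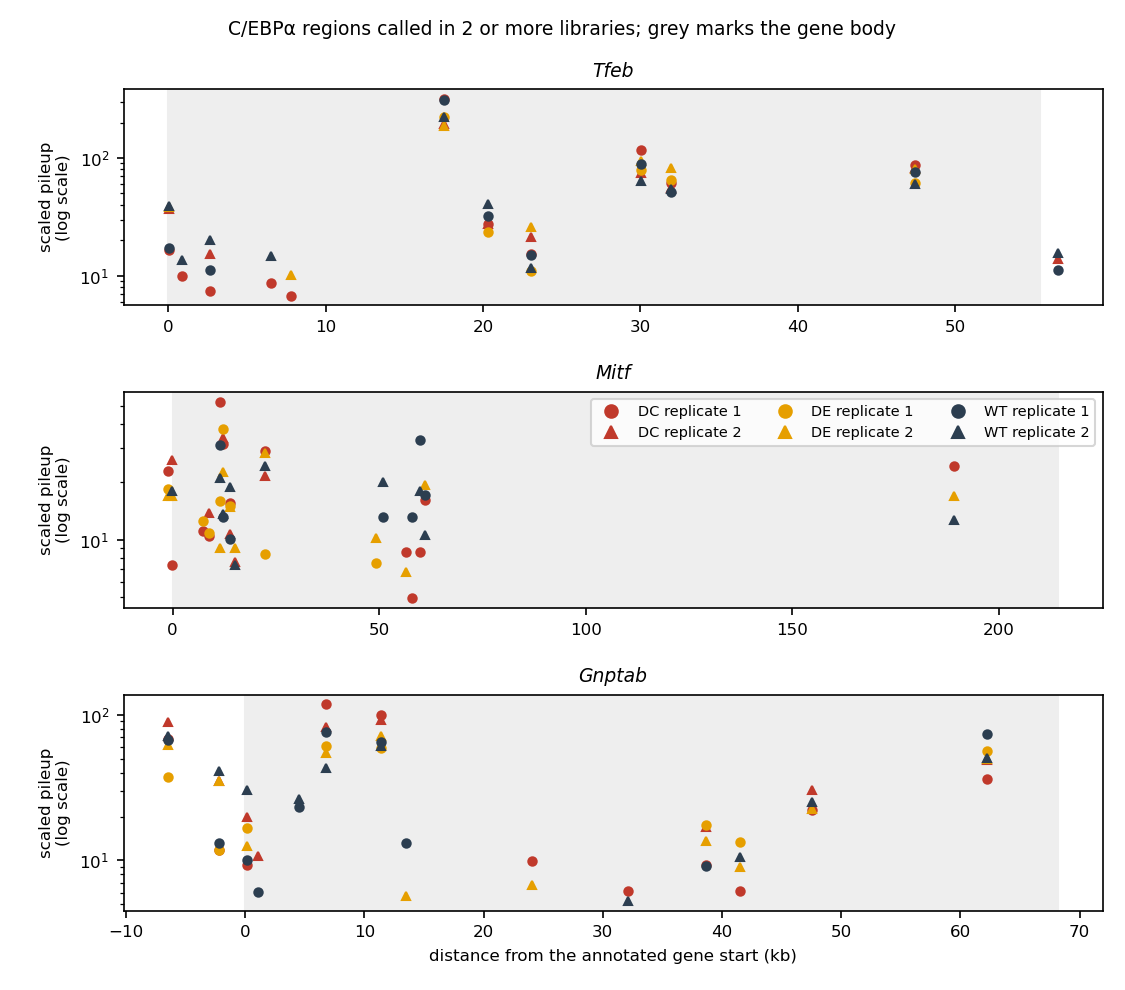
Scaled pileup (log axis) of every region called in at least 2 libraries at Tfeb, Mitf and Gnptab, against the distance of its centre from the annotated gene start in kb. Grey spans the gene body, and each point is 1 library. The strongest Tfeb region is 16482 bp from the nearest start by its summit, and the Mitf region that rose in DC is 12110.5 bp from it.

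Few member regions, and weak ones, had peaks throughout 1 genotype and none in another. Of 125 member regions called in both DC or both WT libraries, 6 (4.8%) were in both DC and neither WT, against 9.4% of all regions, and 5 (4.0%) were the reverse, against 2.41%. With DE, 4 of 121 (3.31%) were in both DE and neither WT, against 5.64%, and 11 (9.09%) were the reverse, against 4.25%. Between the variants, 5 of 123 (4.07%) were in both DC and neither DE, against 6.32%, and 2 (1.63%) the reverse, against 1.71%. A missing peak means that no call was made at the depth of that library, and 2 libraries against 2 cannot reach a p under 0.33 per region in an exact permutation test.

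Cd63 had the 1 region with a peak in all 4 variant libraries and no WT peak (0.746% of 134 member regions called in both libraries of any genotype, against 2.11% of all). It lies 555 bp before the gene start (chr10:128895486-128895676), where DC libraries had raw pileups of 29 and 27, DE libraries 24 and 18, and WT libraries no call. The reverse, 5 regions (3.73%, against 1.19%), were called in both WT libraries and in no variant library. The strongest was inside Gnptab (chr10:88383505-88383748), with raw pileups of 23 and 25 in WT. The others lay inside Mitf (chr6:97857808-97857964; 13 and 19), before Hexa (chr9:59537651-59537934; 12 and 17, within Tmem202), at the Hexa start (chr9:59539250-59539740; 10 and 12) and at the Ctsa start (chr2:164833434-164833869; 13 and 13, overlapping Neurl2). So Mitf and Gnptab each had a region called in WT alone beside one with more signal in DC.

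Further regions in both DC and neither WT were near Hexa (raw pileups 33 and 10), in Lipa (25 and 12), in Lamp2 (24 and 10), in Mitf (17 and 9) and near Ctsd (16 and 9). In both DE and neither WT were 2 more of Mitf (22 and 15, and 9 and 9) and 1 of Psap (12 and 12). In both WT and neither DE were also a Mitf region (33 and 17 in WT), one in Gusb (13 and 20) and 2 of Tfeb (11 and 19, and 11 and 15). In both DE and neither DC were 1 of Lamp2 (33 and 13 in DE) and the weaker of these Mitf regions. Mitf thus appeared in every direction against WT. Its gene body is 214359 bp long, against a member median of 18554 bp, and it has 25 regions, as has Gnptab. A gene with more regions has more that can show such calls.

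**Figure D5:**
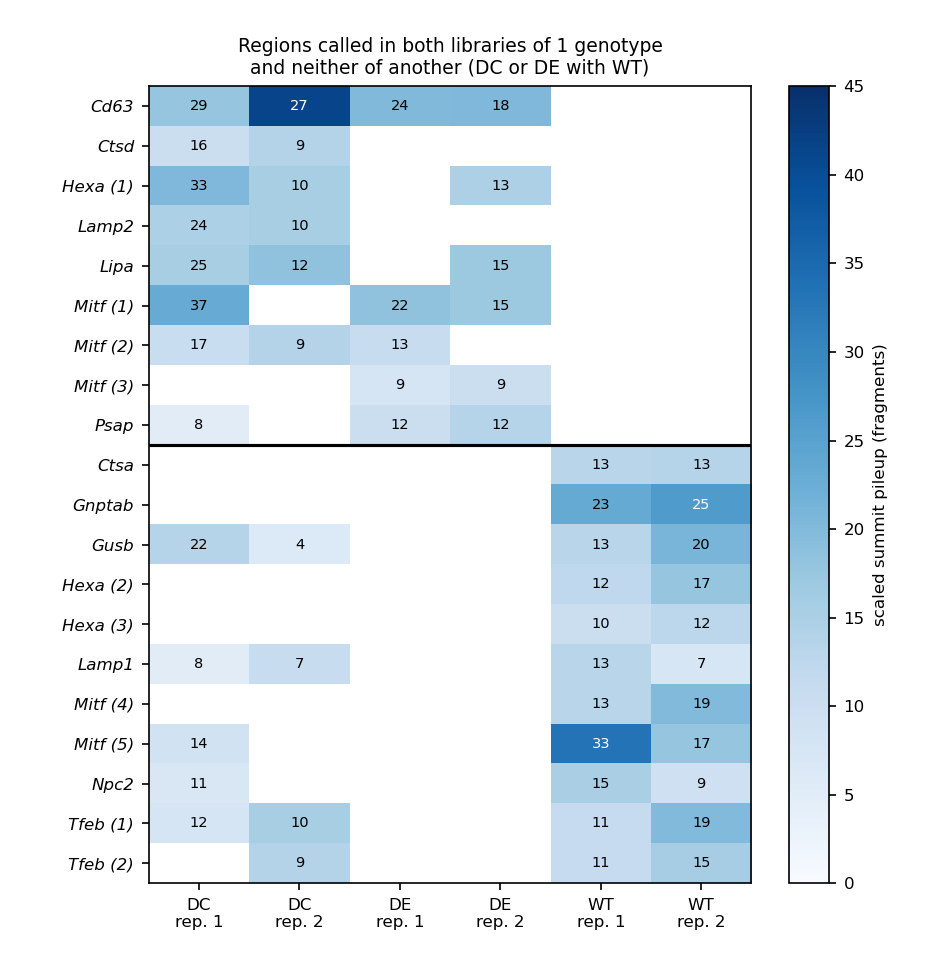
Raw summit pileup (numbers) and scaled pileup (shade) in each library at the member regions with peaks throughout 1 genotype and none in another, DC or DE with WT; white marks no call. Above the line are 9 regions without a WT call, led by Cd63, and below it 11 with both WT calls, 5 of them in no variant library.

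Most genes of the wider pathway had called regions as well. A region in both libraries was found at 84 of 91 other lysosomal genes in DC cells, 80 in DE cells and 79 in WT cells. These included 17, 16 and 16 of 18 genes of the proton pump that acidifies the lysosome and 24, 22 and 22 of 25 further hydrolases. Of their 181 shared regions, 5 rose (2.76%) and 1 fell (0.552%) in limma with a batch term in DC against WT, below the 3.15% and 1.17% of all regions. In DE against WT and in DC against DE 0 passed. At an unadjusted p under 0.05 the 3 comparisons had 27, 21 and 11 of the 181 (14.9%, 11.6% and 6.08%), against 17.0%, 12.0% and 8.20% of all regions. The median log2 difference was -0.07 in DC minus WT and -0.05 in DE minus WT, the same to 2 decimals as for the members.

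The 5 that rose in DC were spread over 3 roles, with 2 of the 38 proton pump regions among them. Raw pileups at Atp6v1g1 (chr4:63553730-63554366) were 308 and 87 in DC, 147 and 81 in DE, and 109 and 51 in WT (1.05 ± 0.24, adjusted p = 0.00231, limma with a batch term). At Atp6v1e1 (chr6:120799731-120800144) they were 58 and 41 in DC, 31 and 31 in DE, and 20 and 17 in WT (1.32 ± 0.36, adjusted p = 0.0155). Ap1b1, an adaptor subunit for vesicle sorting, differed by 1.68 ± 0.42 (adjusted p = 0.00695), and Slc11a1, the metal transporter of phagosomes, by 0.75 ± 0.21 (adjusted p = 0.0223). Abca2, a lipid transporter, was the fifth, at 0.70 ± 0.22 (adjusted p = 0.0432). Fnip1, a partner of folliculin in nutrient signalling, fell by 1.35 ± 0.41 (adjusted p = 0.0359), from raw pileups of 28 and 5 in DC, 24 and 13 in DE, and 34 and 24 in WT. None of the 6 passed without the batch term, where the smallest adjusted p was 0.331.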

How the data were processed

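C/EBPα CUT&RUN was measured in 6 libraries, 2 per genotype. MACS2 2.2.9.1, Bowtie2, Trimmomatic, HOMER and SAMtools are named, with build mm10, per the submitters' processing notes; the use of IgG as control is not given in the sources used here. The deposited peak lists give each peak's summit fold (a ratio) and its −log10 p-value and −log10 q-value, a score that is 10 times the −log10 q, and a summit offset, all as the authors made them. A further deposited list of merged regions was not used.

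From fold and p-value, the whole summit pileup and the local background were recovered, allowing 5% of the gap from one whole number to the next, for 99.986% of peaks or more in each list. In DC replicate 2, 8.09% of peaks, and in DE replicate 2 0.346%, all with pileups of at most 8, had 2 solutions, of which the closest was used. This held for 3 member regions and for 0 of the 81 called in all libraries. The smallest background of a library is its floor. Regions called in all 6 libraries were compared on log2 scaled pileup by limma 3.58.1 under R 4.3.3, with a variance trend and Benjamini-Hochberg adjustment over 23480 regions (threshold 0.05), without and with batch; Python 3.11.15, numpy 2.4.6, pandas 2.3.3 and scipy 1.17.1 did the rest. The fits were also run on simulated data whose changes were larger than any member difference scaled to shared regions. That run therefore does not measure error at the differences given here. Replicate numbers pair the libraries because the labels give them as batches: deviations of same-numbered libraries correlated at 0.55 (DC and WT), 0.41 (DE and WT) and 0.38 (DC and DE) over 23480 regions, which are not independent. Genes and promoters are RefSeq GRCm38.p6.

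The members, roles, pathway list and motifs were chosen with earlier results of these data known. Named regions were every member's lead region (values for the 2 strongest per role), those that passed or the 5 smallest p-values per comparison, and up to 4 by pileup of each pattern of calls. Alternatives were another scaling, the deposited fold, regions called in 4 libraries, a −log10 q of at least 2, windows of 1 and 50 kb, coverage of 50% of a region, and each library left out.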

Additional observations from a re-analysis of the deposited data

Results flagged for a closer look

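At 3 of the 21 named member regions called in all libraries, both DC libraries lay on one side of the WT library of their batch. Both DE libraries lay on the other side, in places by very little. At the Ctse lead region (chr1:131672246-131672894) the log2 ratio to WT was -0.27 and -0.52 for DC, against 0.42 and 0.0605 for DE, in batches 1 and 2. At the Gnptab region outside the gene (chr10:88372472-88372894) it was 0.0202 and 0.32 for DC, against -0.845 and -0.20 for DE. At the Cd68 promoter (chr11:69666018-69666895) it was -0.0646 and -0.15 for DC, against 0.16 and 0.14 for DE. The direct comparison of DC with DE, which tests this difference, did not pass at any of them (limma with a batch term, adjusted p = 0.484, 0.484 and 0.820). Over all 81 member regions 7 (8.64%) had such opposite signs, against 1207 (5.14%) of all 23480. The signs share WT libraries and rest on the scaling to shared regions. The Ctse region and this Gnptab region were named for their small DC against DE p-values, a choice that favours opposite signs.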

How the results depend on the processing

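With the replicate block the count of member regions passing in DC against WT was 1 in place of 0, and it was 1 with that block together with the floor scaling, a −log10 q of at least 2 or a window of 1 kb, and 6 (4 rose, 2 fell) at 50 kb. In DC against DE it was 1 with the block at 50 kb. Leaving out 1 library gave 0 to 2 in DC against WT; in DE against WT and DC against DE no other count changed. With the block, a Laptm5 region (chr4:130910774-130911038) fell by 1.94 without DC replicate 1 (adjusted p = 0.0422) and the Ctss lead region by 1.46 without WT replicate 1 (adjusted p = 0.0364); both are named because they passed there. The Mitf difference ranged over 0.95 to 2.14 in 19 alternatives and passed in 4; with the deposited fold and the block its adjusted p was 0.253, and on regions called in the 4 DC and WT libraries 0.0560. The second Gnptab region passed in DC against WT in 2, without DE replicate 1 or 2 with the block (adjusted p = 0.0428 and 0.0371). With the block, leaving out 1 library moved 7 of the 15 named differences by over 1.5 times and changed the sign of none; besides the values in the results, the Mitf difference in DE minus WT was 0.72 to 1.53, the Tfe3 one -0.98 to -0.49 and that of the Gnptab region outside the gene 0.44 to 0.94. The Grn region inside the gene reversed to 0.0531 in DC minus WT under floor scaling, with and without the block; the cause is the shift of all regions by that scaling.

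Genes bound in both libraries stayed within 1.5 times the counts given. Regions in one genotype and not the other came to 11 for DC with WT, 26 at 50 kb, and 28 to 149 with 1 library left out; to 15 for DE with WT, and 37 to 59; and to 7 for DC with DE, 14 at 50 kb, 12 where peaks had to cover 50% of the region, and 29 to 146. The highest, 149 and 146, came without DC replicate 2, where DC replicate 1 stood alone. Depth is unknown, and weak regions near the calling threshold were not detectable in every library.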
